A study of Homo sapiens with 4 samples.

Results

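Promoterless loops inside the body of a single protein-coding gene were DNA contacts of RNA polymerase II for which neither end lay near a coding promoter and both ends fell in the same gene. A loop was counted here when neither of its anchors came within 1 kb of where any transcript of a coding gene begins (GENCODE release 44, GRCh38) and both anchors overlapped the body of the same protein-coding gene. The rule used positions only and no contact counts. It kept 14424 of the 66417 loops listed for mock-treated cells (21.7%, 95% Wilson interval 21.4 to 22.03) and 4233 of the 18778 loops listed for PDS-treated cells (22.5%, 21.95 to 23.1). The mock loops held 54608 paired-end tags (PETs, the read pairs that join the anchors of a loop) and the PDS loops held 14693.

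The loops came from POLR2A HiChIP in HepG2 cells, a line from a human liver carcinoma, in which proximity ligation of chromatin cut with MboI is followed by precipitation of the largest subunit of RNA polymerase II. The mock cells received sterilized water, and the treated cells received 20 µM PDS (pyridostatin, a small molecule that binds G-quadruplexes) for 24 h. There were 4 samples, 2 replicates per condition, but each condition was deposited as 1 combined list in which every loop carries at least 3 PETs. The spread between replicates was therefore not available, no test between conditions was possible, and every interval given is a 95% interval that covers counting error only. Loops in a gene share anchors, so they are not independent of each other, and a loop below 3 PETs in a list cannot be told apart from an absent one.

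RNA polymerase II travels along the whole gene during elongation, so an antibody against it also recovers chromatin from gene bodies, far from promoters. Contacts inside a gene can join exons, intronic enhancers and noncoding start sites, and they are studied as traces of enhancers in introns and of the folding of transcribed genes. A G-quadruplex (G4) is a 4-stranded fold of DNA that can form where runs of guanines follow each other closely. A predicted G4 motif below means 4 stretches of G, each 3 or more long, separated by 1 to 7 bases of any kind, searched by letters on both strands, which does not show that the fold forms in these cells.

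The strongest loops of each list show what such contacts look like in sequence. The mock loop with the most PETs lay in TTC6, which encodes a tetratricopeptide repeat protein, and joined anchors whose midpoints were 160 kb apart and which overlapped exons by 142 and 104 bases. It had 31 PETs in the mock list and 9 in the PDS list. Shown for each anchor is the first predicted motif by position whose printed stretch overlapped no exon of a protein-coding gene. The motif is in capitals with 15 bases on either side, on the strand that carries the guanines (chr14:37718807-37718861 and chr14:37864973-37865029, plus strand, GRCh38).

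TTC6 anchor 1: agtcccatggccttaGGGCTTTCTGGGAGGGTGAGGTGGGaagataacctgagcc
TTC6 anchor 2: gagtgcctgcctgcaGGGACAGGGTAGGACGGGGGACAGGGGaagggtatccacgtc

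NOL4L, PRORP and STXBP6 followed with 17 PETs each in the mock list. Of these, NOL4L (nucleolar protein 4 like) kept 12 PETs in the PDS list, a value shared with a loop of LRRC1 as the highest there. Its anchors were 24.0 kb apart and held 7 and 20 predicted motifs. The first of each, chosen in the same way, is printed because this loop was among the strongest of both lists (chr20:32538434-32538482 and chr20:32559847-32559903, minus strand).

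NOL4L anchor 1: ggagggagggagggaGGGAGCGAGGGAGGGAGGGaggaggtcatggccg
NOL4L anchor 2: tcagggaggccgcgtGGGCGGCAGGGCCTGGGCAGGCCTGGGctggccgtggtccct

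The loops of PRORP, which encodes the nuclease subunit of mitochondrial RNase P, and of STXBP6, a SNARE-binding protein, had a motif in only 1 of their anchors. Shown are the motif of PRORP anchor 2 (chr14:35236422-35236478, minus strand) and, for STXBP6 anchor 1, which had no motif, the 60 bases around its outer end with the MboI site in capitals (chr14:24836832-24836891, plus strand).

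PRORP anchor 2: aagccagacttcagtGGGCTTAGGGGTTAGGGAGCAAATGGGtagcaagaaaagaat
STXBP6 anchor 1: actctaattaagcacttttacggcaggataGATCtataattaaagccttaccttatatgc

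LRRC1, a leucine-rich repeat gene, had the strongest loop that was higher in the PDS list than in the mock list, with 9 mock and 12 PDS PETs over 12.96 kb (motif at chr6:53844079-53844130; MboI end at chr6:53859522-53859581; plus strand).

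LRRC1 anchor 1: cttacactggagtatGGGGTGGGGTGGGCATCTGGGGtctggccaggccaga
LRRC1 anchor 2: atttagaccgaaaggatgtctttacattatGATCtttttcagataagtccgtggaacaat

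All of the printed stretches lay in introns, because the selection passed over stretches that overlapped an exon of a protein-coding gene. Each printed stretch occurred once on chromosomes 1 to 22, X and Y, counting both strands. The capitals of NOL4L anchor 1 alone occurred 25 times. The stretches selected for PRORP anchor 1 and STXBP6 anchor 2, not printed, occurred 103 and 19 times, so not all anchors of the strongest loops were free of repeated sequence.

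The PDS list held 0.293 promoterless loops inside genes for each one in the mock list (interval 0.284 to 0.304). This ratio lay between those of the remaining promoterless loops (0.316, 0.307 to 0.325) and of loops with a promoter anchor (0.254, 0.248 to 0.261), and none of these intervals overlapped. Over all loops the ratio was 0.283, a difference in the size of the lists that the files do not separate from sequencing depth. Counted in PETs, the loops inside genes had a ratio of 0.269. With a higher PET minimum in both lists it was lower, 0.166 (0.150 to 0.183) for loops of at least 5 PETs, 2650 mock and 439 PDS, and 0.0727 (0.0360 to 0.147) for loops of at least 10 PETs, 110 and 8. The ratio over all loops fell too, with 12230 mock and 1824 PDS loops of at least 5 PETs and 612 and 50 of at least 10. The fall was therefore not particular to loops inside genes.

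The PDS/mock ratio also differed between chromosomes. On chromosomes 2, 6, 14, 16, 17 and 20 there were 7797 mock and 2611 PDS loops of the kind described, a ratio of 0.335 (0.320 to 0.350), against 6627 and 1622 on the other chromosomes, a ratio of 0.245 (0.232 to 0.258). These 6 chromosomes carried 54.1% of the mock and 61.7% of the PDS loops inside genes, but 25.4% of the bases in coding gene bodies. Chromosome 14 had the highest ratio (0.382, 0.338 to 0.432) and chromosome 4 the lowest (0.192, 0.149 to 0.249). The 6 chromosomes were set apart with earlier results of these data known. HepG2 is aneuploid, copy number was not measured here, and its part in these values was not tested. Within each of the chromosome groups the order of the classes was kept: on the 6 chromosomes loops inside genes had a ratio of 0.335 against 0.282 for promoter loops, and on the others 0.245 against 0.225, where the intervals (0.232 to 0.258 and 0.217 to 0.234) overlapped. The remaining promoterless loops had 0.353 and 0.256, and their intervals overlapped those of the loops inside genes in both groups (0.342 to 0.365 on the 6 chromosomes, 0.244 to 0.269 on the others).

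Loops inside genes were short. The median distance between anchor midpoints was 12.6 kb in the mock list and 13.1 kb in the PDS list, against 17.4 and 17.2 kb over all loops, which follows in part from the rule, since both anchors must fit in a gene. Only 3.53% of the mock loops spanned more than 100 kb, compared with 12.8% of all mock loops. For 30.8% of the mock and 34.3% of the PDS loops the anchors were under 2 kb apart edge to edge, so part of the list is contacts between near neighbours along the chromosome. By distance, the PDS/mock ratio was 0.259 (0.244 to 0.275) for loops of 5 to 10 kb, 0.323 (0.305 to 0.342) for 10 to 20 kb, 0.306 (0.284 to 0.330) for 20 to 50 kb, 0.275 (0.240 to 0.314) for 50 to 100 kb and 0.332 (0.279 to 0.395) beyond 100 kb. The shortest loops had the lowest ratio, and their interval overlapped only those of the 50 to 100 kb class. The longest loops were weak: a mock loop of 1222 kb in DAB1 (an adaptor of reelin signalling) and a PDS loop of 1140 kb in RBFOX1 (a neuronal splicing factor) both had 3 PETs, and neither was in the other list. DAB1 was named after its value was seen.

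The ratio on either side of the 1 kb limit was within counting error. Loops inside a gene whose nearest coding start site was just outside the limit, at 1 to 1.5 kb from an anchor, numbered 446 in the mock and 130 in the PDS list (ratio 0.291, 0.240 to 0.354). Just inside it, at 0.5 to 1 kb, loops that the rule left out numbered 511 and 138 (0.270, 0.224 to 0.326). Farther into genes the ratio was 0.278 (0.258 to 0.301) for starts 1.5 to 5 kb away, and 50 to 100 kb away it was 0.322 (0.289 to 0.359), with 0.333 (0.292 to 0.379) beyond 100 kb. On the 6 chromosomes these values were 0.319 (0.288 to 0.353) at 1.5 to 5 kb and 0.364 (0.314 to 0.422) beyond 100 kb. On the others they were 0.237 (0.211 to 0.267) and 0.250 (0.190 to 0.329). The intervals of the ends of this range overlapped over all chromosomes and within both groups.

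How many mock loops were found again depended on what counted as the same loop. With both anchors identical, 1672 loops were in both lists, which is 11.6% of the mock and 39.5% of the PDS loops inside genes. The mock share was 27.8% when the mock anchors were extended by 5 kb on either side and 7.06% when at least 5 PETs were asked for in both lists. Thus 88.4% of the mock loops were absent from the PDS list, beside 89.0% of all mock loops, and 60.5% of the PDS loops were absent from the mock list, beside 60.9% of all PDS loops. Among loops with at least 5 PETs, 72.9% of the mock loops inside genes (1933 of 2650) were not in the PDS list, beside 73.2% of all such mock loops. In the PDS list 28.2% (124 of 439) were not in the mock list, beside 29.3%. These shares were close to those of all loops, and nothing particular to loops inside genes is read from them.

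How often a mock loop was found again rose with its PETs. Of loops inside genes with 3 PETs, 6.87% were also in the PDS list, against 11.4% with 4 PETs, 19.7% with 5, 24.4% with 6, 41.6% with 7 to 9 and 61.8% (52.5 to 70.4) with 10 or more. At 3 PETs the value lay above that of promoter loops (5.47%), and the intervals did not overlap, while at 10 or more the intervals of the classes were wide. On the other chromosomes alone those at 3 PETs overlapped (4.42 to 5.74 inside genes, 4.06 to 4.90 for promoter loops). The remaining promoterless loops had 6.05% at 3 PETs, and their interval (5.66 to 6.46) overlapped that of loops inside genes (6.35 to 7.43). At 4 and 6 PETs promoter loops had the higher values, 11.6% and 27.2%. The rise with PETs was also seen on the other chromosomes, from 5.04% to 25.9% (19.3 to 33.8) between 3 and 7 to 9 PETs, and on the 6 chromosomes, from 8.68% to 46.9% (42.2 to 51.8).

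**Figure D1:**
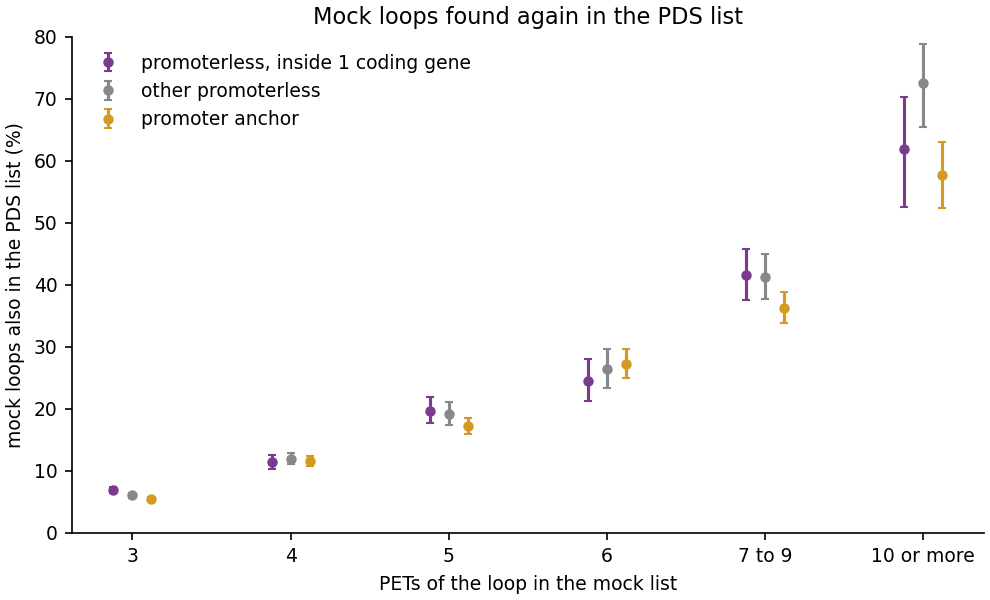
Share of mock loops that were also in the PDS list (y axis, %) by the number of PETs of the loop in the mock list (x axis), for promoterless loops inside 1 coding gene, other promoterless loops and loops with a promoter anchor. Points are shares and bars 95% Wilson intervals; loops inside genes rise from 6.87% at 3 PETs to 61.8% at 10 or more.

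Among the 1672 loops in both lists, 888 had fewer PETs in the PDS list, 503 had the same number and 281 had more. Because a loop enters a list only from 3 PETs on, a plain ratio of such counts is pulled towards 1. A binomial model that takes this lower limit into account was fitted to the 1279 of these loops whose PETs summed to 7 to 19. It put the PDS rate at 0.535 of the mock rate (0.504 to 0.566). The model assumes the same factor for every loop and leaves out mock loops absent from the PDS list. Where factors differ between loops, it describes only the loops that stayed in both lists, not the whole class. The same fit gave 0.460 (0.441 to 0.479) for promoter loops, with no overlap of the intervals, and 0.519 (0.492 to 0.546) for the remaining promoterless loops. For loops inside genes the factor was 0.543 (0.509 to 0.578) on the 6 chromosomes and 0.501 (0.438 to 0.572) on the others. Promoter loops had 0.463 (0.441 to 0.485) and 0.453 (0.418 to 0.490), so on the others the intervals of these classes overlapped.

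Single loops went the other way. Besides LRRC1, a loop in MACROD2 had 5 mock and 10 PDS PETs, and a loop in FRZB, which encodes a secreted antagonist of Wnt ligands, had 3 and 10. Loops of BICD1 (a dynein adaptor) and ESR1 (the oestrogen receptor alpha) had 9 PETs each in the PDS list and were absent from the mock list. GMDS, the first enzyme of GDP-fucose synthesis, and ARID1B, a subunit of the BAF chromatin remodelling complex, each had such a loop with 8 PETs. In the opposite direction, loops of MBNL2, MIPOL1 and ASXL2 had 13 PETs each in the mock list and were absent from the PDS list. FRZB, BICD1, ESR1, MBNL2, MIPOL1 and ASXL2 were named after their values were seen.

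Of 20046 protein-coding genes, 4196 (20.9%) held at least 1 promoterless loop in the mock list and 2085 (10.4%) in the PDS list. Both lists had a loop in 1810 genes, which is part of 4471 genes with a loop in either. In the mock list 1816 genes held a single loop, 897 held 5 or more, 297 held 10 or more and 85 held 20 or more. The PDS list had 48 genes with 10 or more and 9 with 20 or more. Most loops could be assigned to 1 gene: 13890 mock loops lay in exactly 1 coding gene, and 534 lay in overlapping genes and were counted for each. A further limit is that 158 mock loops lay only in genes whose transcripts are all annotated as readthrough.

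Longer genes held such loops more often, up to 500 kb. Under 10 kb, 4 of 5145 genes had a mock loop (0.0777%). The share was 1.57% at 10 to 20 kb, 13.2% at 20 to 50 kb, 36.5% at 50 to 100 kb, 61.8% at 100 to 200 kb and 68.9% (66.2 to 71.5) at 200 to 500 kb, with 64.1% (58.7 to 69.1) beyond 500 kb. Loops span at least about 5 kb, so the shortest genes have little room for both anchors. Density did not rise all the way with length: it was 14.9 mock loops per Mb of gene at 100 to 200 kb, 13.6 at 200 to 500 kb and 8.96 beyond 500 kb. Over the 4196 genes with a mock loop, Spearman's rho between length and loop number was 0.508, a description over genes that share the same 2 lists. The ratio of PDS to mock loops was 0.257 (0.222 to 0.299) for genes of 20 to 50 kb and 0.311 (0.287 to 0.338) for genes beyond 500 kb. On the other chromosomes alone these were 0.222 (0.179 to 0.275) and 0.244 (0.210 to 0.284), and in both cases the intervals overlapped.

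On the 6 chromosomes the same lengths gave more genes with a loop. There 93.5% (89.9 to 95.8) of genes of 200 to 500 kb held a mock loop, against 61.4% (58.2 to 64.5) on the others, and 74.2% against 36.2% held a PDS loop. Beyond 500 kb the mock shares were 91.7% and 56.2%, and the PDS shares were 90.3% and 33.5%.

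**Figure D2:**
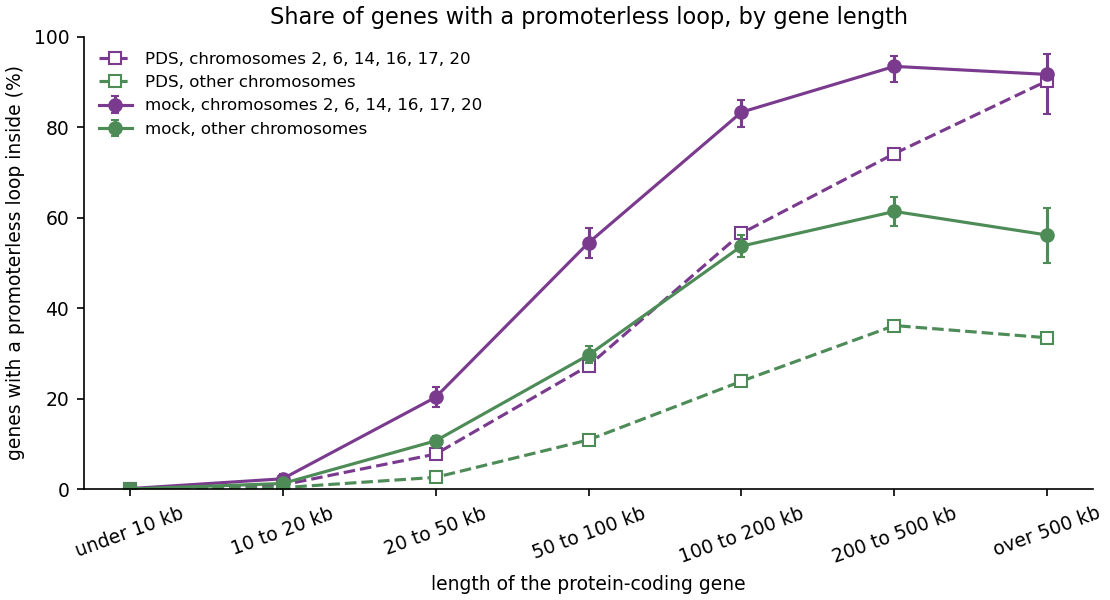
Share of protein-coding genes that held at least 1 promoterless loop (y axis, %) by gene length (x axis), for the mock list (filled circles, solid lines, bars are 95% Wilson intervals) and the PDS list (open squares, dashed lines), on chromosomes 2, 6, 14, 16, 17 and 20 and on the others. At 200 to 500 kb the mock shares were 93.5% and 61.4%.

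The genes with the most loops were long genes on the 6 chromosomes. MACROD2 on chromosome 20, which encodes an ADP-ribose hydrolase and spans 2058 kb, led with 85 mock and 33 PDS loops. TTC6 on chromosome 14 had 77 and 23. SLC25A21, a mitochondrial carrier of oxodicarboxylates, had 67 and 35. All of the 15 genes with the most mock loops lay on the 6 chromosomes and had fewer loops in the PDS list.

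Signalling and regulatory genes made up part of the list. PLCB1, a phospholipase C, had 63 mock and 28 PDS loops. NPAS3, a bHLH-PAS transcription factor of neurons, had 62 and 37, the most PDS loops of any gene. PTPRT, a receptor tyrosine phosphatase, had 49 and 20, and PRKCA, protein kinase C alpha, had 42 and 13.

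Others served membranes and metabolism. SNX29, a sorting nexin, had 60 mock and 21 PDS loops, and STXBP6 had 46 and 22. NUBPL, an assembly factor of mitochondrial complex I, had 44 and 14. GMDS had 39 and 12, while WWOX, an oxidoreductase with WW domains, had 55 and 18, and BCAS3 had 53 and 16. EXOC6B, an exocyst subunit, had 38 and 6 and thereby the lowest ratio of the 15 (0.158, 0.0684 to 0.364). RBFOX1, with 38 and 12 loops over 2474 kb, ranked next.

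**Figure D3:**
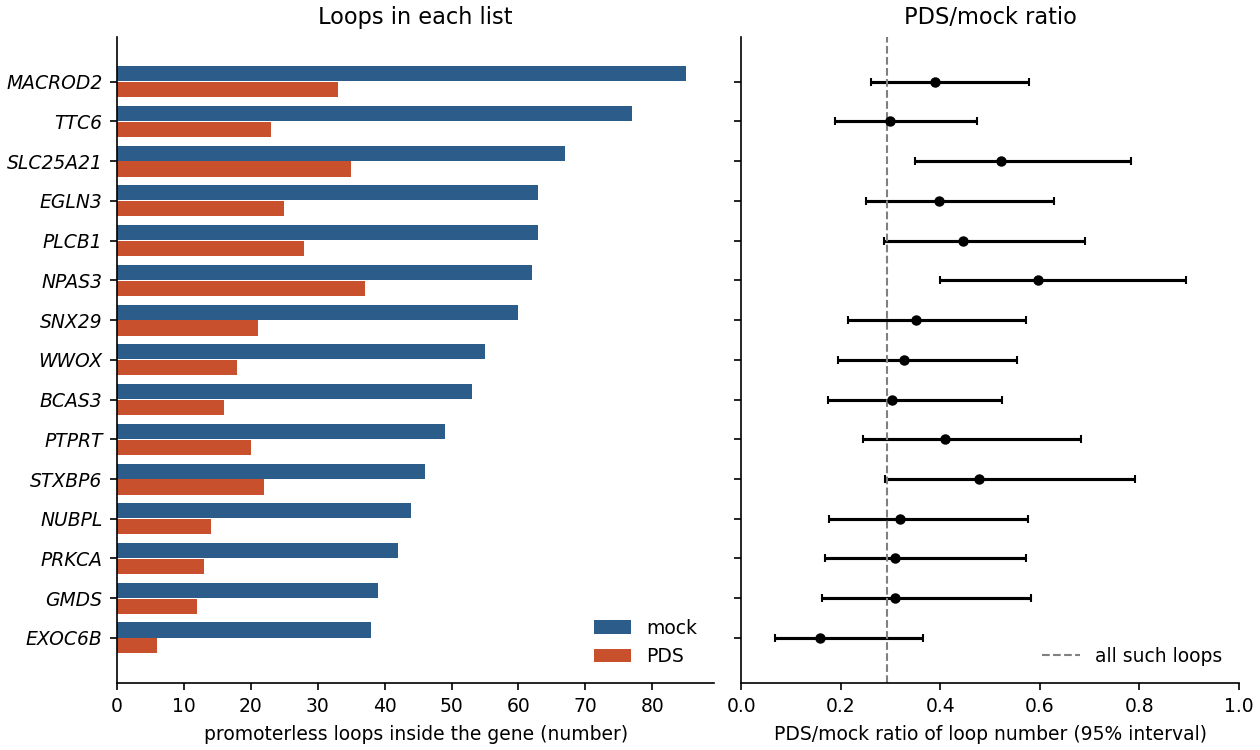
The 15 protein-coding genes with the most promoterless mock loops: number of loops in the mock and PDS lists (left) and the PDS/mock ratio with its 95% counting interval (right, dashed line at 0.293 for all such loops). The intervals of SLC25A21 and NPAS3 lie above the dashed line, and those of the other 13 include it.

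The count depended on the gene model for EGLN3, a prolyl hydroxylase that acts on hypoxia-inducible factors. It had 63 mock and 25 PDS loops in a gene body of 539 kb, but its canonical transcript covers 26.8 kb and held only 2 of the mock and 0 of the PDS loops. In TTC6 the canonical transcript held 31 of the 77 mock loops. For MACROD2, SLC25A21, SNX29, WWOX, BCAS3, PTPRT, STXBP6, PRKCA, GMDS and EXOC6B all loops of both lists lay in the canonical transcript.

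Per length, other genes led. B4GALT5, a galactosyltransferase that makes lactosylceramide, had 19.8 mock loops per 100 kb (16 loops in 80.9 kb) and 6.18 PDS loops per 100 kb. STXBP6 had 19.1 and 9.14, TTC6 had 17.3 and 5.16, and NCOA3, a coactivator of nuclear receptors, had 16.8 and 5.81. PRORP had 16.7 and 7.70, though each of its 26 mock loops also lay in an overlapping readthrough gene (ENSG00000258790). MACROD2, with the most loops, had 4.13 and 1.60 per 100 kb.

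The loops of a gene met at common anchors. In TTC6 the 77 mock loops used 35 anchors, and 16 of them met at the anchor 117 kb from the gene's start, the highest use seen at an anchor of loops inside 1 gene. The 23 PDS loops used 19 anchors, with at most 6 loops at an anchor, and 19 of the 23 were also in the mock list. In STXBP6 the 46 mock loops used 19 anchors, 14 of them at an anchor 187 kb from the start, and the 22 PDS loops used 18 anchors with at most 5 loops. The median distance in STXBP6 was 54.1 kb for mock and 24.9 kb for PDS loops. MACROD2 was built differently: its 85 mock loops used 106 anchors, with at most 6 at an anchor, and 54 of them had 3 PETs. Over all loops in exactly 1 gene, 73.0% of the 19514 mock anchors served a single loop and 1777 served 3 or more.

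**Figure D4:**
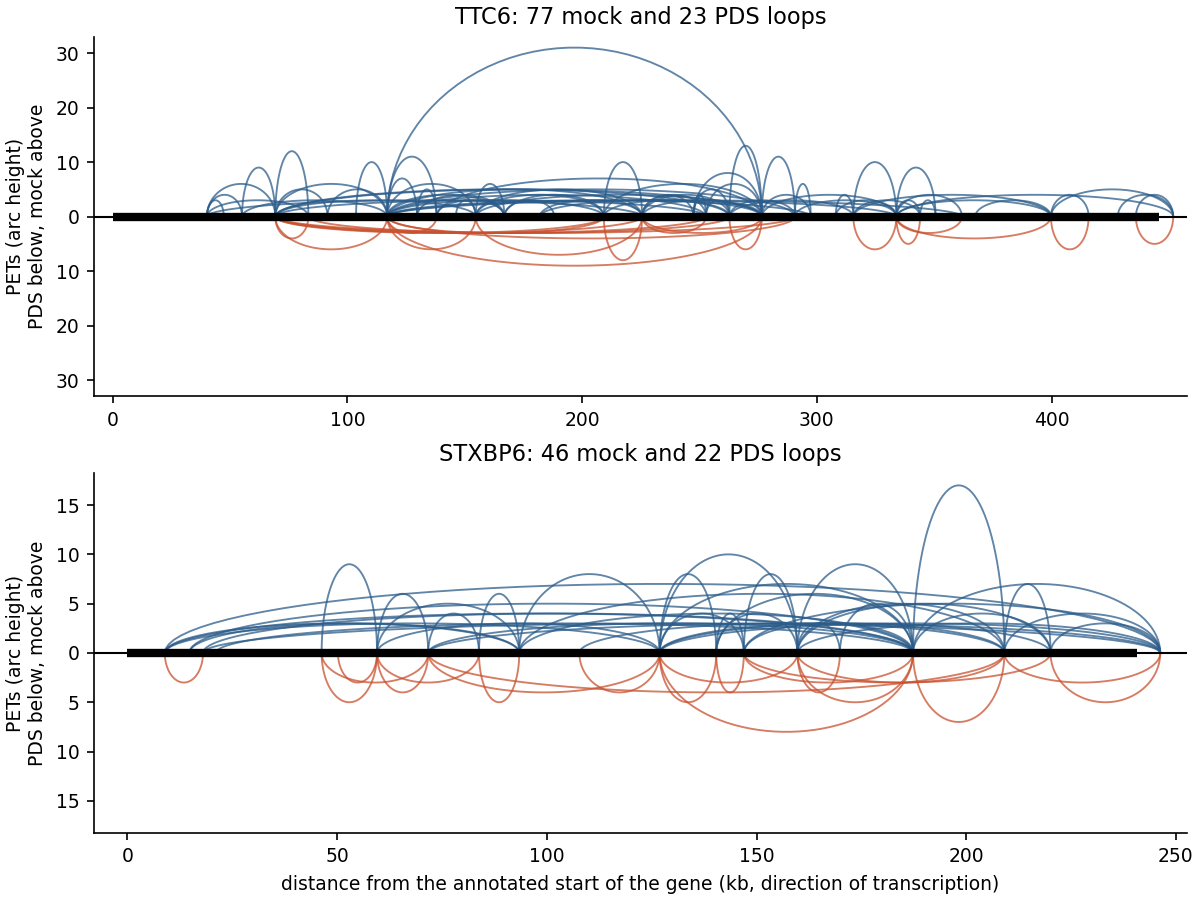
Promoterless loops of TTC6 (top) and STXBP6 (bottom) by distance from the annotated start of the gene (x axis, kb, in the direction of transcription); arcs join anchor midpoints, arc height is the number of PETs, mock loops point up and PDS loops down, and the thick bar is the gene body. TTC6 shows 77 mock and 23 PDS loops, with the loop of 31 mock PETs standing above the rest; anchors that reach past the gene end have their midpoint outside the bar.

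Genes differed in how many loops the PDS list held. Among the 297 genes with at least 10 mock loops, the interval of the gene's own ratio lay wholly above 0.293 in 12 (4.04%) and wholly below it in 4 (1.35%). Since these are 95% intervals, some genes with the common ratio would also miss it, so the shares do not mark the genes out. All 12 genes above lay on the 6 chromosomes, which held 209 of the 297. Set against the ratio of their own chromosome group, 8 (2.69%) lay above and 3 (1.01%) below.

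The genes above on both counts included SLC25A21 (0.522, 0.348 to 0.784) and NPAS3 (0.597, 0.398 to 0.894). CERS6, a ceramide synthase, had 28 mock and 17 PDS loops. PLCB4 had 11 and 10, with 1 in common, while CDYL, a chromodomain corepressor, had 12 and 10, with 7 in common. CERS6, PLCB4 and CDYL were named after their values were seen.

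At the other end stood genes with many mock loops and no PDS loop. MLLT10, a partner of the histone methyltransferase DOT1L, had 17 mock loops, MBNL1, a splicing regulator of the muscleblind family, had 15, and TOX3, an HMG-box gene, had 14. GPHN, the scaffold protein gephyrin, had 13, and DLGAP1, a postsynaptic scaffold, had 12, as did RORA. The upper limits of their ratios ran from 0.226 for MLLT10 to 0.320 for DLGAP1. Of the genes with at least 5 PDS loops, the highest ratios rested on few mock loops: FHL2, a LIM-domain cofactor, had 1 mock and 5 PDS loops (5.00, 0.775 to 32.3), NBEA had 2 and 5, TFDP2 had 3 and 5, and KATNIP and SND1 had 4 and 5 each. Each of these intervals included 1 and lay above 0.293, the ratio of all loops inside genes. The genes were picked for their high ratios, so nothing is concluded from this.

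Genes were also grouped by function. Hepatocyte transcription factors had the lowest ratio of the lists: 12 of 30 genes had mock loops and 3 had PDS loops, 50 loops against 5 (0.100, 0.0411 to 0.243), where all protein-coding genes together had 0.292 (0.283 to 0.302). RORA, a nuclear receptor, had 12 mock loops and none in the PDS list, and TCF7L2, an effector of Wnt signalling, had 11 and 1. HNF4A, a master regulator of hepatocytes, had 8 and 2, and ZBTB20 had 5 and 2. HNF4G had 4 mock loops and none in the PDS list. Only 5 of the 30 genes lay on the 6 chromosomes. On the other chromosomes alone the list had a ratio of 0.0769 (0.0252 to 0.235), and this interval overlapped that of all loops inside genes there (0.232 to 0.258).

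Genes of the liver's secreted proteins are short and held few loops. Of 35 genes listed as hepatocyte plasma proteins, whose median length was 20.3 kb against 27.4 kb over all protein-coding genes, 5 had mock loops (14.3%, beside 20.9% of all genes). The list held 12 mock loops against 3 in the PDS list (0.250, 0.0758 to 0.824). Among the 5 genes was A1CF, an RNA-binding factor and not a secreted protein, with 2 of the mock loops. With A1CF counted, the density of the list was 10.9 mock loops per Mb, against 10.8 over all protein-coding genes, and 8.57 against 6.69 on the other chromosomes. These densities of the list rest on at most 12 mock loops and have no interval, so they do not settle how close the list was to all genes. APOB, the structural protein of low-density lipoprotein, had 3 mock and 2 PDS loops, and F5, coagulation factor V, had 4 and 1. Lipid and sterol genes, with a median length of 57.1 kb, had 37 mock and 12 PDS loops in 15 and 6 of 36 genes (0.324, 0.171 to 0.615). ACACA, acetyl-CoA carboxylase, had 6 and 4, and ABCA1, the cholesterol exporter, had 6 and 3.

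Cytoskeleton and adhesion genes, chromatin regulators and RNA-processing factors were spread around the common ratio. The first had 179 mock and 40 PDS loops in 26 and 13 of 34 genes (0.223, 0.159 to 0.314), led by UTRN, which encodes utrophin, with 35 and 10, and PARD3, a cell polarity protein, with 32 and 8. Chromatin regulators had 169 and 55 in 22 and 16 of 35 genes (0.325, 0.240 to 0.441), with 26 and 9 in NCOA3 and 21 and 6 in ARID1B. RNA-processing factors had 24 and 5 (0.208, 0.0822 to 0.528) in 5 and 3 of 31 genes, of which RBFOX2 had 12 and 2 and QKI had 9 and 2. All of these intervals included 0.292.

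Genes known from neurons and muscle had loops too, though at low density. Of 31 such genes, with a median length of 1220 kb, 19 had mock loops and 11 had PDS loops, 154 against 52 (0.338, 0.247 to 0.462). Their density was 3.97 mock loops per Mb, against 10.8 over all protein-coding genes, and 0.813 against 6.69 on the other chromosomes. Part of this gap goes with length, since all genes beyond 500 kb had 8.96, and 4.17 on the other chromosomes. RBFOX1 and EYS, a photoreceptor gene, led with 38 and 23 mock and 12 and 10 PDS loops. Transcription of these genes was not measured here.

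Anchors were spread over the gene body and thinned at its ends. Of the anchors of loops inside exactly 1 gene, 6.53% (6.24 to 6.82) had their midpoint in the 5′-most of 10 equal parts in the mock list, 11.97% (11.6 to 12.4) in the fourth and 8.24% (7.92 to 8.57) in the last. The PDS list had 5.82%, 11.8% and 8.92% there, and all of its intervals overlapped those of the mock list. The low value at the 5′ end follows in part from the rule, which left out loops near start sites. An anchor reached within 1 kb of the annotated gene end in 7.31% of mock and 7.76% of PDS loops. A loop spanned a median of 7.56% of its gene in the mock list and 7.42% in the PDS list.

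**Figure D5:**
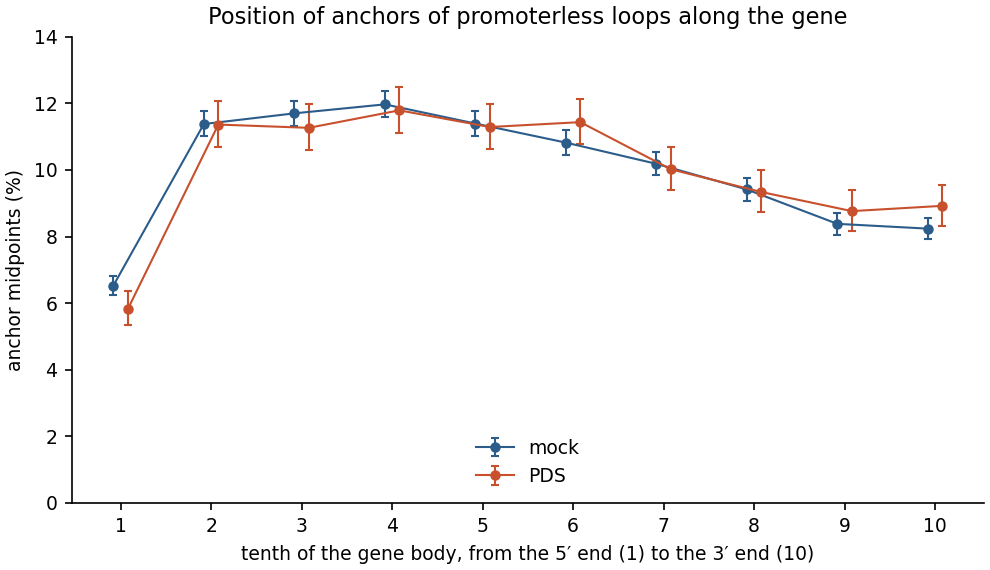
Position of anchor midpoints along the gene body (x axis, 10 equal parts from the 5′ end to the 3′ end) as a share of all anchors of loops inside exactly 1 gene (y axis, %), for the mock and PDS lists with 95% Wilson intervals. Both lists run from about 6% in part 1 to 11.97% (mock) and 11.8% (PDS) in part 4; midpoints that lay just outside the gene were put in the nearest part.

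About as many loops touched an exon as not. An exon of a protein-coding gene overlapped an anchor in 50.9% of the mock and 52.3% of the PDS loops, and of loops in exactly 1 gene 49.7% of the mock and 47.9% of the PDS loops had anchors in introns alone. A start site of a noncoding gene lay within 1 kb of an anchor in 18.7% and 19.6%, so promoterless here refers to coding genes. The corresponding share was 35.1% for the remaining promoterless mock loops.

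Predicted G4 motifs were less frequent here than at other loops. At least 1 anchor held a motif in 63.0% (62.3 to 63.8) of the mock and 65.7% (64.3 to 67.1) of the PDS loops inside genes, against 72.1% (71.5 to 72.7) of the remaining promoterless and 83.2% (82.7 to 83.6) of the promoter loops in the mock list. Per kb of anchor there were 0.121 motifs, against 0.162 and 0.351 in those classes. Median GC content of the anchors was 40.7%, 42.7% and 45.7%, and median anchor width 7170, 7625 and 7995 bp, so motifs, GC content and width moved together, and their separate parts were not tested. Of the motifs in anchors of mock loops inside exactly 1 gene, 7858 lay on the coding strand and 8927 on the template strand, a coding share of 46.8% (46.1 to 47.6). In the PDS list the share was 47.6% (46.5 to 48.8). Motifs of the same anchor are not independent, and the share over whole gene bodies was not measured. No strand preference of these loops is therefore read from the values.

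Loops with a predicted motif did not have a lower PDS/mock ratio than loops without. Motifs are read from sequence, so this does not compare loops by G4s folded in the cells. The paper that reported these data used sites bound by a G4-specific antibody, an unlike measure. It reported a larger loss of contacts for loops at such sites. The ratio was 0.272 (0.257 to 0.289) with no motif in either anchor, 0.306 (0.291 to 0.322) with a motif in 1 anchor and 0.305 (0.284 to 0.329) with motifs in both. On the 6 chromosomes it was 0.320 (0.297 to 0.346), 0.339 (0.317 to 0.362) and 0.351 (0.319 to 0.386), and on the others 0.223 (0.203 to 0.243), 0.264 (0.243 to 0.287) and 0.249 (0.221 to 0.281). Anchors with motifs were wider, with a median of 7487 against 5720 bp among mock loops of 3 PETs. The factor fitted to the loops in both lists was 0.534 (0.499 to 0.571) with a motif and 0.537 (0.480 to 0.600) without.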

How the data were processed

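POLR2A HiChIP of HepG2 cells was deposited as 1 list of loops per condition, which combined 2 replicates. The submitters' notes name HiC-Pro 3.1.0 and GRCh38. The loop caller and the way replicates were combined are not given in the sources used here. The deposited counts (PETs per loop, not normalized, at least 3) were used as they stand. Of 81742 distinct anchors, 81737 began and ended at GATC, the MboI site, in GRCh38. Loops were matched to GENCODE 44 with Python 3.11.15, pandas 2.3.3, intervaltree 3.1.0 and pysam 0.24.0. Shares and ratios have 95% Wilson intervals from scipy 1.17.1; the ratio interval came from that of the PDS share. The rate of loops in both lists was fitted by maximum likelihood to binomial splits truncated at 3 PETs. The member rule, the motif search and this fit were tested on simulated data with known answers. For the fit, all simulated loops shared the same factor. Sequences were read from GRCh38. Some genes and sequences that the rules select are not reported here.

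Named genes were the 15 with the most mock loops, the 10 with the most PDS loops, the 5 densest with at least 5 mock loops, up to 5 with the highest ratio among those with at least 5 PDS loops, up to 5 with the most mock loops and no PDS loop (by PETs on ties), those of the 3 strongest loops per list and the 2 leading genes of each list by function. The rule, the gene lists and the group of 6 chromosomes were chosen with earlier results of these data known.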

Additional observations from a re-analysis of the deposited data

How the results depend on the processing

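The PDS/mock ratio of promoterless loops inside genes (0.293) stayed within its interval with start site windows of 2.5 and 5 kb, with start sites of every biotype, with the 5′ ends of genes only, with anchors wholly inside genes, with loops in exactly 1 gene, and at 20 kb or more. It was 0.166 for loops of at least 5 PETs, 0.0727 for at least 10 PETs, 0.313 for at least 10 kb, 0.269 over summed PETs and 0.245 without chromosomes 2, 6, 14, 16, 17 and 20. The share of mock loops also in the PDS list (11.6%) was 7.06% with at least 5 PETs in both lists, 8.64% at 20 kb or more, 27.8% when mock anchors were extended by 5 kb and, as an alternative added after seeing the data, 7.50% without the 6 chromosomes.

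The share of mock loops that lay inside genes (21.7%) was 19.7% with the 2.5 kb window, 17.7% with every biotype, 20.3% with anchors wholly inside, 14.7% at 20 kb or more and, added after seeing the data, 19.5% with the canonical transcript as body. The share in the PDS list (22.5%) was 20.5%, 18.1%, 21.0%, 16.1% and 20.3% under these settings, and 24.1% at 5 PETs or more. A motif lay in an anchor of 79.97% of mock and 83.5% of PDS loops with spacers of up to 12 bases, in both anchors of 20.6% and 21.4%, and in an anchor of 60.5% and 64.1% without the 6 chromosomes (added). Genes with a loop numbered 1453 (mock) and 321 (PDS) at 5 PETs or more. The cause of these shifts was not tested. The ratio of the hepatocyte transcription factor list (0.100) was 0.0842 over summed PETs. It was 0.182 (0.0452 to 0.731) on the 6 chromosomes, from 11 mock and 2 PDS loops. At 5 PETs or more it was 0 (0 to 0.480), from 8 mock and 0 PDS loops. These wide intervals included the ratios of all loops inside genes at the same settings, 0.335 on the 6 chromosomes and 0.166 at 5 PETs or more.

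No paired analysis was possible because each condition was deposited as 1 combined list, and neither leaving out a replicate nor the replicate block was run for that reason. Depth limits the weak loops most: 59.0% of mock and 70.2% of PDS loops had the lowest count, 3 PETs.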
